A study of Homo sapiens with 9 samples.

Results

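The cytochrome P450 genes of families 1 to 4 were followed in xenograft tumours grown from Huh-7 cells, an established human line of hepatocellular carcinoma, after delivery of the liver transcription factor HNF4A. Members were all rows of the deposited gene table whose symbol is CYP followed by a family number from 1 to 4, subfamily letters and a gene number, with no pseudogene suffix. The rule used no measured value and gave 36 of the 50868 rows. Of these 36, 31 had at least 1 count in the 9 libraries and 20 passed the filter on low counts, among 16697 genes tested. Huh-7 cells, labelled WT for genotype, had been injected under the skin of NOD/SCID mice. All tumours received adenovirus by injection into the tumour, begun at a volume of about 100 mm3 and given every 4 days over 8 days. The control group received a virus carrying green fluorescent protein (Ad-GFP), the second group a virus named for HNF4A (Ad-HNF4A), and the third group a virus named for K458R (Ad-K458R), read here as HNF4A with lysine replaced by arginine at that position. Each group had 3 libraries, placed by their titles or, for 1 Ad-K458R library with a misspelt title, by its description. The treatment field of the labels does not match the titles for 4 of the 6 libraries of the HNF4A viruses, where the number inside the name goes up by 1 from library to library, and it was not used. Tumours are numbered within a group, but the labels leave unsaid whether each grew in its own animal, and p-values therefore reflect only the spread among these libraries, which may be technical. The mice lack adaptive immunity but keep macrophages, neutrophils, vessels and connective tissue, and the sources used here do not say how mouse reads were handled. In bulk tumours, fewer cells of a type and less RNA per cell cannot be told apart.

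Cytochrome P450 enzymes hold a haem group, sit in the membrane of the endoplasmic reticulum and insert oxygen into their substrates with electrons passed on by POR, the P450 reductase. Families 1 to 3 are known mainly for the oxidation of drugs, pollutants and some hormones, and family 4 for the hydroxylation of fatty acids, leukotrienes and vitamin K at the end of the chain. In liver, the receptors AHR, NR1I3 (CAR) and NR1I2 (PXR) switch on CYP1A, CYP2B and CYP3A genes in response to foreign compounds, and HNF4A is known as a factor that many liver P450 genes depend on.

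The 9 libraries held 15933702 to 23171796 counts. Levels are in CPM, a gene's count scaled to its library's total with TMM factors, and 1 count was worth between 0.0442 and 0.0626 CPM. HNF4A stood at 154, 170 and 183 CPM with Ad-GFP, at 3700, 3510 and 5390 CPM with Ad-HNF4A, and at 5410, 5000 and 5490 CPM with Ad-K458R, so HNF4A was high in the 6 libraries placed in the HNF4A groups and low in the controls. Counts do not tell vector from cellular transcripts or the altered from the unaltered form. All 11 hepatocyte and hepatoma markers had counts (summed CPM 34000 to 38000). Among the libraries, Ad-HNF4A replicate 1 lay apart on the second principal component (12.7% of variance) at 46.1, where the others lay between -11.2 and 4.12. The counts of P450 members called below were the same without that library in both comparisons of Ad-HNF4A.

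The promoters of CYP1A1 and CYP1A2 are shown because these neighbouring genes carried the largest level and the largest change of the set. The genes lie head to head on chromosome 15, with 23.2 kb between their starts. Sequences are from RefSeq (GRCh38.p14) and cover the 250 bases before the start, written 5′ to 3′ on the strand of the gene. CYP1A1 is at chr15:74725529-74725778 on the minus strand and CYP1A2 at chr15:74748595-74748844 on the plus strand. Capitals mark TATAAA, the TATA box, and GCGTG, the core of the site bound by AHR with its partner ARNT. In CYP1A2 the match on the gene's strand overlaps a match on the other strand.
CYP1A1: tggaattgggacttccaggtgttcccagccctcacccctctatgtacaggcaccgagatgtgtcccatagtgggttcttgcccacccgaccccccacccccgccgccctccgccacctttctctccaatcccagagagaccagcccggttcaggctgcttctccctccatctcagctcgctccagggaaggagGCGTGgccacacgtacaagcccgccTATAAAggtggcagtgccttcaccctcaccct
CYP1A2: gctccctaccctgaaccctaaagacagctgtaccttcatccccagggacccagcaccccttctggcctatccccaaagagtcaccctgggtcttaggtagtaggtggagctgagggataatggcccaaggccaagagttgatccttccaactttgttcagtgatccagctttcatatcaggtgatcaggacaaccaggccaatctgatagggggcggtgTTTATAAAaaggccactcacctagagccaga
The CYP1A1 window held TATAAA with its first base at position -32 and GCGTG at -57, counted from the RefSeq start. The CYP1A2 window held TATAAA at -29 and, on the other strand, at -31, and no GCGTG. On both strands, TATAAA occurred in 10.7% of all 35116 RefSeq promoter windows of this length and in 13 of the 31 windows of P450 members, and GCGTG in 32.2% of all windows and in 6 of the 31.

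The same windows were searched on both strands for CAAAGTCCA, a form of the HNF4 motif, since HNF4A was the factor delivered. It occurred in 114 of the 35116 windows (0.325%) and in 6 of the 31 windows of P450 members, which belong to 27 genes. The 6 matches are shown with 15 bases on either side, on the strand of the gene and with the match in capitals. CYP2A6, CYP2A7 and CYP2A13 are close copies, and their windows share the 15 bases after the match while differing in those before it.
CYP2B6: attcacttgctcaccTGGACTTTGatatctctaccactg
CYP2C8: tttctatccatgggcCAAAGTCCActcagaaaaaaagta
CYP2R1: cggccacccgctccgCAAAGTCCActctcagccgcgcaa
CYP2A6: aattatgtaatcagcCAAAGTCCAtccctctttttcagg
CYP2A7: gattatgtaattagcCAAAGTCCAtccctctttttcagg
CYP2A13: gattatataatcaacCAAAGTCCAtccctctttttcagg
The windows lie at chr19:40991036-40991074 (CYP2B6, plus strand), chr10:95069527-95069565 (CYP2C8, minus), chr11:14892374-14892412 (CYP2R1, minus), chr19:40850480-40850518 (CYP2A6, minus), chr19:40882264-40882302 (CYP2A7, minus) and chr19:41088380-41088418 (CYP2A13, plus). In CYP2B6 the motif reads TGGACTTTG, its complement on the other strand. None of these 6 genes was called in any comparison below, and 3 of them (CYP2B6, CYP2C8 and CYP2R1) passed the filter. CYP4F2 held none of the 3 motifs in its window. A match is a run of letters and not evidence of binding, and members without an entry in the table include CYP1B1, CYP2C18, CYP2D6, CYP2D7, CYP2F1, CYP4A11, CYP4A22 and CYP4F12.

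CYP1A1, which oxidises polycyclic aromatic hydrocarbons, was the most abundant member in every group. It supplied 31.4% of the summed P450 CPM with Ad-GFP, 23.2% with Ad-HNF4A and 32.0% with Ad-K458R, of sums of 186, 217 and 238 CPM, shares of counts that take no account of gene length. At least 1 count was found for 28, 29 and 30 of the 36 members in the respective groups. A mean of 1 CPM or more was reached by 14, 17 and 16 members, and a mean of 10 CPM or more by 6, 7 and 7. To order the genes by level, CPM was taken per kilobase of summed exons (GENCODE 29). On that scale CYP1A1 stood at 17.0 ± 2.22 CPM per kb with Ad-GFP (SD, n = 3). CYP2B6, an enzyme of bupropion and efavirenz oxidation, followed at 5.21 ± 0.351. Next came CYP4F3 (4.22 ± 1.43), CYP2S1 (4.21 ± 1.13), CYP2J2 (4.18 ± 0.589) and CYP4F12 (3.64 ± 0.202). From CYP2B6 to CYP4F12 each member's mean ± SD overlapped that of its neighbour in this order. With the lengths behind the deposited FPKM, CYP1A1, CYP2B6, CYP2S1 and CYP4F12 kept their ranks, and CYP4F3 and CYP2J2 exchanged the third and the fifth place.

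**Figure D1:**
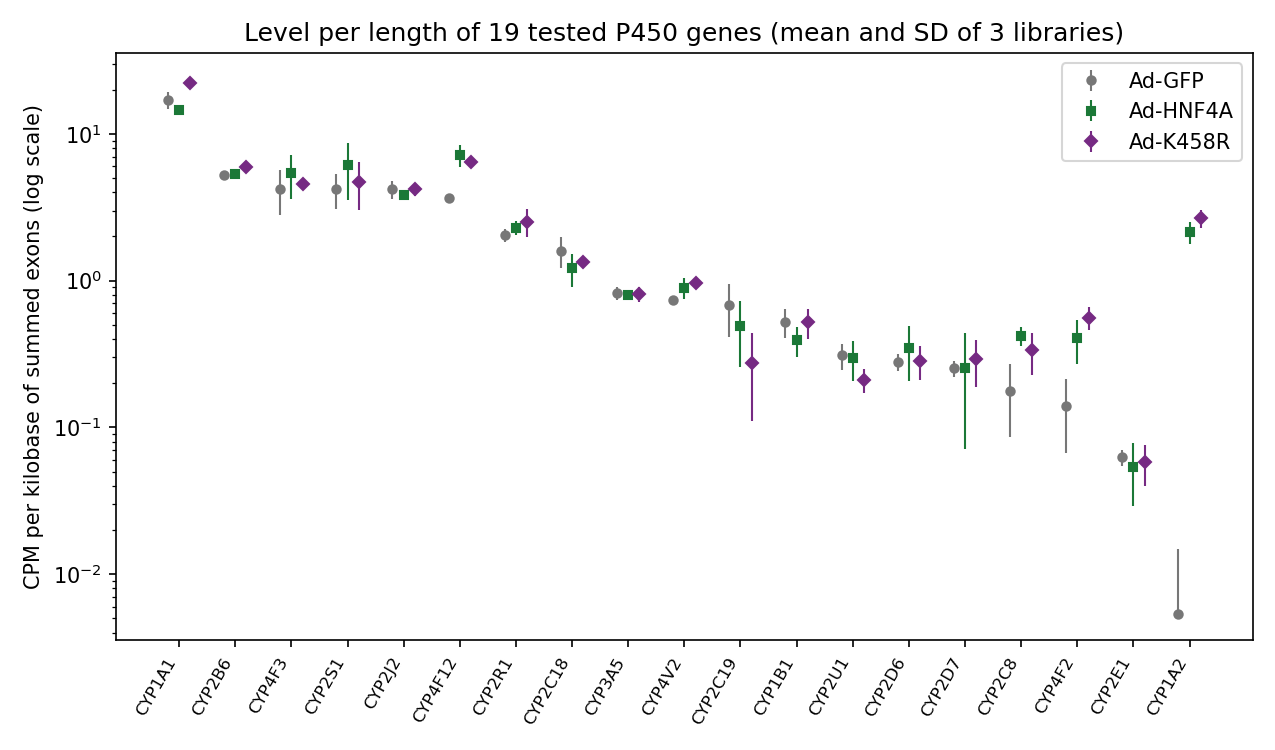
Mean level per length of 19 tested P450 genes in CPM per kilobase of summed exons, on a log axis, with the SD of 3 libraries as bars. For CYP1A2 with Ad-GFP the SD exceeds the mean and only the upper bar is drawn. CYP1A1 is highest in every group, and CYP1A2 lies lowest with Ad-GFP and above CYP4V2 with both HNF4A viruses.

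Against Ad-GFP, 2 of the 20 tested members rose with Ad-HNF4A (CYP1A2 and CYP4F12) and 4 rose with Ad-K458R (CYP1A1, CYP1A2, CYP4F12 and CYP4F2). Calls were made at an adjusted p under 0.05 in edgeR's quasi-likelihood test with Benjamini-Hochberg adjustment over all genes tested. Over all genes, 3.16% were called higher with Ad-HNF4A and 3.32% with Ad-K458R. No member was called lower in either comparison by edgeR, DESeq2 or limma-voom, where 0.305% and 0.234% of all genes were called lower by edgeR. At an unadjusted p under 0.05, 4 members were higher and 1 lower (CYP1A1) with Ad-HNF4A, and 7 higher and 1 lower (CYP2C19) with Ad-K458R. The share of all genes at that unadjusted threshold is not given, so such counts, here and below, show no excess on their own. The median log2 change of the 20 members was 0.11 with Ad-HNF4A and 0.19 with Ad-K458R, beside 0.01 and 0.0 over all genes tested, and 12 and 13 of the 20 estimates were above 0. These medians do not depend on the size of the change of CYP1A2, the highest of the 20. The 3 libraries of each group did not overlap for 4 of 20 members with Ad-HNF4A (CYP1A2, CYP2C8, CYP4F12 and CYP4F2, all above Ad-GFP), beside 21.4% of all genes in either direction. They did not overlap for 8 of 20 with Ad-K458R, beside 23.7% of all genes. Among them, CYP1A1, CYP1A2, CYP2B6, CYP4F12, CYP4F2 and CYP4V2 lay above Ad-GFP and CYP2U1 below. Both comparisons share the Ad-GFP libraries, so their values are given side by side and are not independent.

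**Figure D2:**
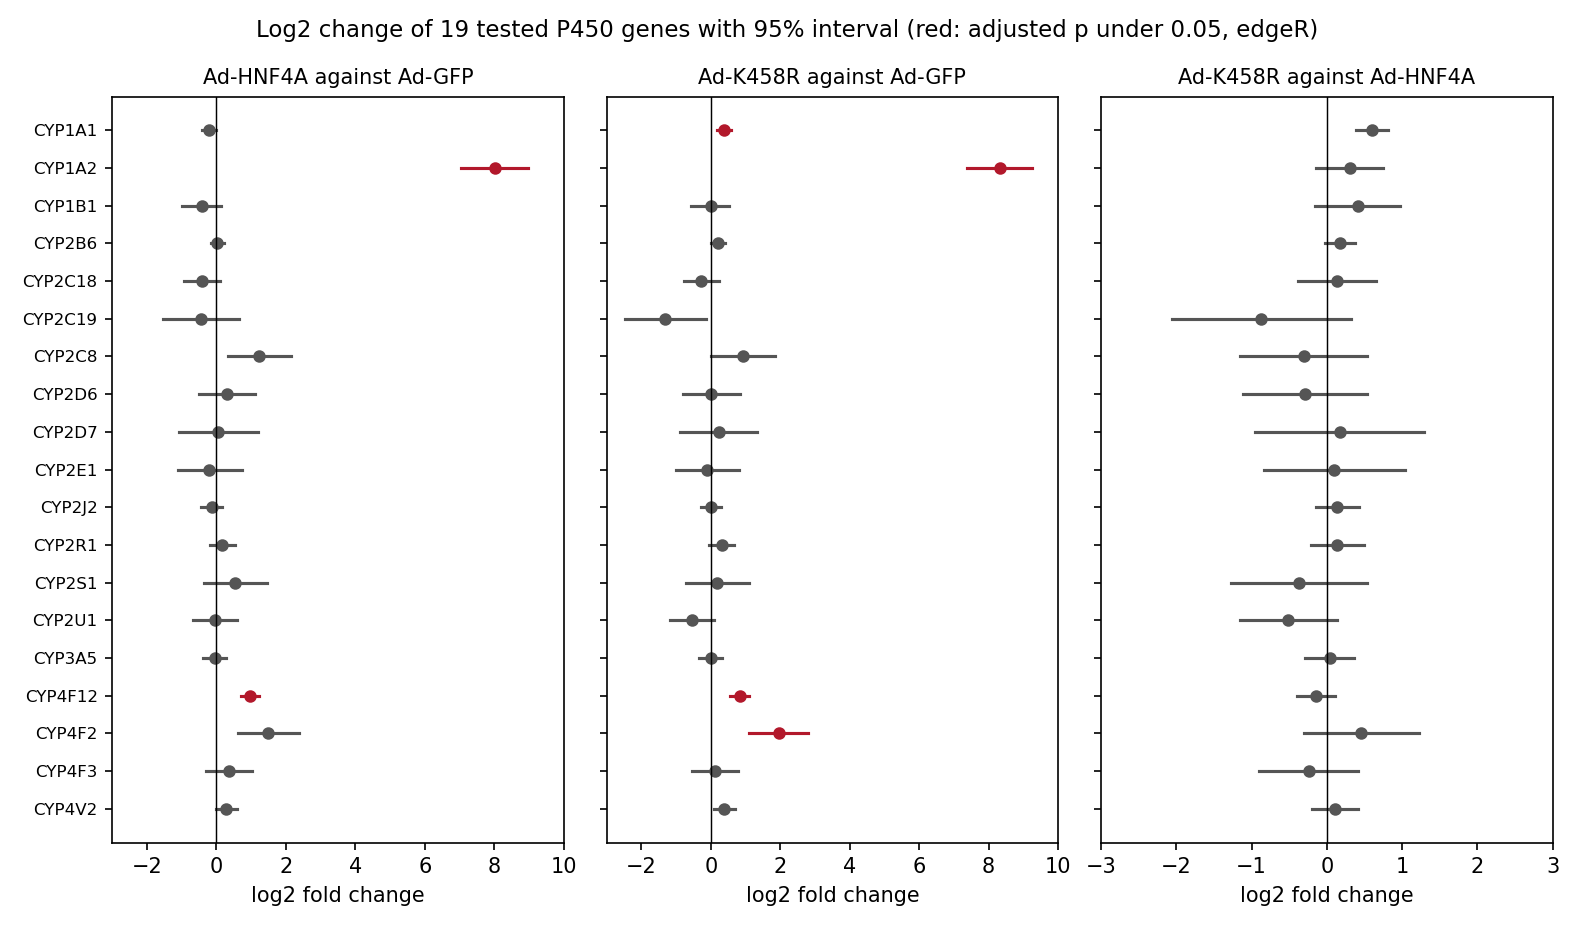
Log2 fold change of 19 tested P450 genes in the 3 comparisons, with points for the edgeR estimate, lines for the 95% interval and red for an adjusted p under 0.05. The axis of the panel for Ad-K458R against Ad-HNF4A spans a narrower range than the other panels. CYP1A2 stands at 8.01 and 8.32 against Ad-GFP, a size that depends on 1 control count, while the other called members lie between 0.39 and 1.95.

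CYP1A2, which oxidises caffeine and is largely restricted to liver, was close to absent in the control tumours and detected in every tumour given HNF4A. The gene (ENSG00000140505) lies at chr15:74748844-74756202 on the plus strand. Its levels were 0.0442, 0 and 0 CPM with Ad-GFP, 5.32, 5.17 and 6.96 CPM with Ad-HNF4A, and 7.25, 6.18 and 8.25 CPM with Ad-K458R. The control libraries held 1 count in all, against 312 and 417 counts in the other groups, and neither HNF4A group overlapped the controls. The ratio of counts to Ad-GFP was 363 for Ad-HNF4A (exact 95% interval 64.7 to 14400) and 441 for Ad-K458R (78.8 to 17500), intervals that cover counting error only. The edgeR log2 estimates were 8.01 ± 0.44 (SE, adjusted p = 3.6e-06) and 8.32 ± 0.43 (adjusted p = 1.6e-06), and without Ad-GFP replicate 1, the only control with a count, they were 9.78 and 10.08. By level per length CYP1A2 moved from rank 27 of 36 with Ad-GFP to rank 8 with Ad-HNF4A and rank 7 with Ad-K458R, at 2.13 ± 0.365 and 2.65 ± 0.381 CPM per kb, and by the deposited FPKM from rank 26 to ranks 7 and 6. It was called in both comparisons under every alternative run.

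CYP1A1, its neighbour (ENSG00000140465, chr15:74719542-74725610, minus strand), was abundant in every group. It stood at 49.7, 61.1 and 64.2 CPM with Ad-GFP, at 50.1, 52.2 and 48.6 with Ad-HNF4A and at 80.1, 76.7 and 72.1 with Ad-K458R. All 3 Ad-K458R libraries lay above the other 6, while the Ad-HNF4A libraries overlapped the lowest control. The change against Ad-GFP was -0.21 ± 0.09 on the log2 scale with Ad-HNF4A (95% interval -0.42 to 0.0, edgeR adjusted p = 0.29), which was not called. It was 0.39 ± 0.09 with Ad-K458R (0.18 to 0.59, adjusted p = 0.049), a 1.31-fold rise. That call was narrow, since 10 of its 17 alternatives lost it, among them the replicate block (adjusted p = 0.094), RLE scaling (0.051), the fit of 6 libraries (0.069) and leaving out Ad-GFP replicate 1 or 2 or any Ad-K458R library (0.082 to 0.19). The log2 change itself stayed between 0.28 and 0.46 under these alternatives. An exact two-sided permutation test of log2(CPM + 1) gave p = 0.3 for Ad-HNF4A and p = 0.1 for Ad-K458R, where 0.1 is the smallest value that 3 against 3 libraries allow. CYP1B1, an enzyme of estradiol and pollutant oxidation at a separate locus on chromosome 2, was not called and averaged 3.15 ± 0.701, 2.36 ± 0.529 and 3.12 ± 0.728 CPM in Ad-GFP, Ad-HNF4A and Ad-K458R. The summed CPM of family 1 was 61.5 ± 8.3, 58.5 ± 1.07 and 86.6 ± 4.22 in the same order.

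**Figure D3:**
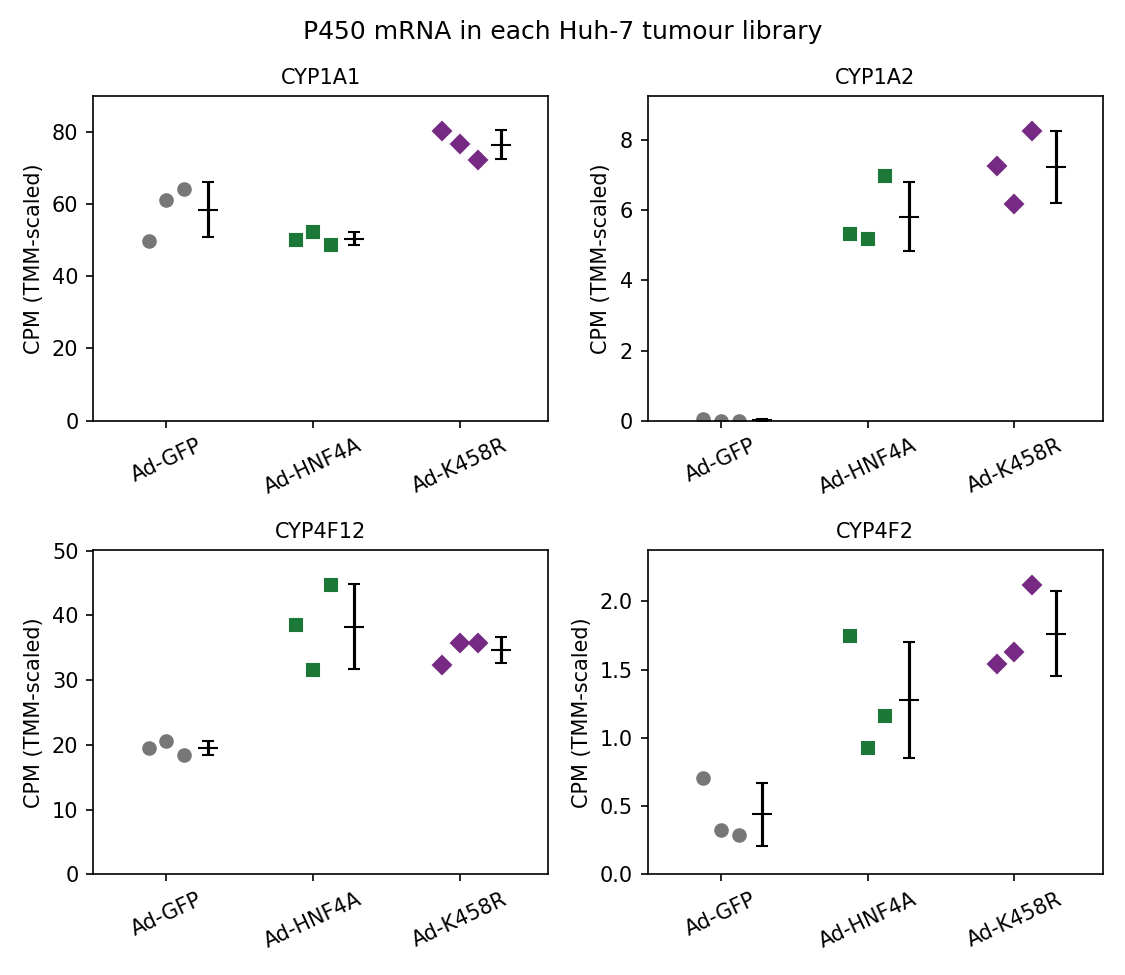
CPM of CYP1A1, CYP1A2, CYP4F12 and CYP4F2 in each of the 9 libraries (points), with the mean and SD of each group beside them and every vertical axis starting at 0. CYP1A2 and CYP4F12 are higher in all 6 tumours given an HNF4A virus than in the controls, whereas CYP1A1 is higher than the controls only in the Ad-K458R libraries.

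Family 4 held the other called members, both within a cluster of 6 CYP4F genes that spans 426 kb on chromosome 19. CYP4F12, a fatty acid hydroxylase that also oxidises antihistamines, lies at chr19:15672757-15697174 on the plus strand (ENSG00000186204). It stood at 19.6, 20.6 and 18.4 CPM with Ad-GFP, at 38.5, 31.6 and 44.7 with Ad-HNF4A and at 32.3, 35.7 and 35.8 with Ad-K458R. Every tumour given an HNF4A virus exceeded every control. The rise was 1.96-fold with Ad-HNF4A (95% interval 1.63 to 2.35, log2 0.97 ± 0.12, edgeR adjusted p = 0.00098) and 1.77-fold with Ad-K458R (1.48 to 2.13, log2 0.83 ± 0.12, adjusted p = 0.0024). It was called in both comparisons under every alternative run. By level per length it moved from rank 6 with Ad-GFP to rank 2 in both HNF4A groups, or to rank 3 in both by the deposited FPKM. Its 7.16 ± 1.22 CPM per kb with Ad-HNF4A overlapped the 6.09 ± 2.55 of CYP2S1.

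CYP4F2, which hydroxylates vitamin K and leukotriene B4, lies at chr19:15878023-15898120 on the minus strand (ENSG00000186115) and was expressed at a far lower level. Its values were 0.707, 0.326 and 0.29 CPM with Ad-GFP, 1.75, 0.929 and 1.16 with Ad-HNF4A, and 1.54, 1.63 and 2.12 with Ad-K458R. No library of either HNF4A group overlapped the controls. The rise with Ad-K458R was 3.87-fold (95% interval 2.15 to 6.99, log2 1.95 ± 0.39, edgeR adjusted p = 0.016). With Ad-HNF4A the log2 difference was 1.49 ± 0.40 (0.61 to 2.37) and was not called (adjusted p = 0.076). The first call was lost without Ad-GFP replicate 2, Ad-GFP replicate 3 or Ad-K458R replicate 3 (adjusted p = 0.072, 0.072 and 0.071), and the second comparison gained a call with no filter (0.046) and without Ad-GFP replicate 1 (0.043).

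The other members of the CYP4F cluster were not called or not tested. CYP4F3, which inactivates leukotriene B4, lies next to CYP4F12 and varied within groups: 19.2, 32.4 and 18.2 CPM with Ad-GFP, 27.7, 21.0 and 40.6 with Ad-HNF4A, and 23.6, 27.0 and 25.2 with Ad-K458R. The groups overlapped, and its log2 differences of 0.36 ± 0.28 and 0.12 ± 0.28 from Ad-GFP were not called (edgeR adjusted p = 0.59 and 0.91). CYP4F8, which overlaps CYP4F3 on the same strand, had 9 counts in all, CYP4F11 had 27 and CYP4F22, a fatty acid hydroxylase of skin, had 9. CYP4F genes resemble one another, and the sources used here do not say how reads that fit several of them were counted, so the split between CYP4F2, CYP4F3 and CYP4F12 is uncertain. CYP4V2, a fatty acid hydroxylase on chromosome 4, averaged 7.21 ± 0.367, 8.78 ± 1.38 and 9.47 ± 0.697 CPM in the groups in the same order. Its log2 differences of 0.28 ± 0.14 and 0.39 ± 0.14 were not called (edgeR adjusted p = 0.34 and 0.21), although its Ad-K458R libraries lay above the controls. CYP4V2 shares 4478 bases with a row on its own strand, KLKB1, that held fewer counts (193 against 1467). The summed CPM of family 4 was 50.7 ± 8.53, 78.5 ± 18.0 and 71.7 ± 3.04, and its lowest library with an HNF4A virus (61.2) stood narrowly above its highest control (60.4). CYP4F12 alone gave 19.5 ± 1.08, 38.3 ± 6.52 and 34.6 ± 1.99 CPM of these sums.

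None of the 12 tested members of family 2 was called by edgeR, DESeq2 or limma-voom in any comparison. At an unadjusted p under 0.05, 1 of them differed with Ad-HNF4A (CYP2C8), 3 with Ad-K458R, CYP2C8 and CYP2C19 among them, and 0 between the HNF4A groups. CYP2B6 averaged 19.6 ± 1.32, 20 ± 1.04 and 22.4 ± 1.01 CPM, and its log2 difference from Ad-GFP had a 95% interval of -0.17 to 0.23 in the Ad-HNF4A group and of 0.0 to 0.40 in the Ad-K458R group. In the CYP2C cluster on chromosome 10, CYP2C8, an enzyme of paclitaxel oxidation, stood at 0.309, 0.326 and 0.725 CPM with Ad-GFP, 1.25, 0.929 and 1.06 with Ad-HNF4A and 0.55, 1.08 and 0.948 with Ad-K458R. Its Ad-HNF4A libraries lay above the controls, and its log2 differences of 1.24 ± 0.41 and 0.92 ± 0.42 did not pass the adjustment (edgeR adjusted p = 0.16 and 0.35). CYP2C19, which activates clopidogrel, averaged 2.66 ± 1.04, 1.93 ± 0.92 and 1.08 ± 0.648 CPM. Its difference of -1.31 ± 0.51 with Ad-K458R was the lowest estimate of the set (edgeR adjusted p = 0.28), and its libraries overlapped. CYP2C18 averaged 3.87 ± 0.937, 2.92 ± 0.741 and 3.21 ± 0.232 CPM. CYP2C18 and CYP2C19 both overlap another row on the same strand that held 145 counts, and genes of this cluster are similar copies, so the split of reads among them is uncertain.

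The family 2 members outside the CYP2B and CYP2C groups were likewise not called. CYP2J2, an epoxygenase of arachidonic acid, averaged 12.5 ± 1.76, 11.4 ± 0.504 and 12.5 ± 1.28 CPM in Ad-GFP, Ad-HNF4A and Ad-K458R. CYP2R1, the vitamin D hydroxylase of liver, averaged 9.21 ± 0.91, 10.3 ± 1.13 and 11.4 ± 2.43. CYP2S1 spread widely within groups, with ranges of 8.35 to 14.4, 10.2 to 24.8 and 9.54 to 19.1 CPM in the same order. CYP2U1, a fatty acid hydroxylase, averaged 1.89 ± 0.379, 1.81 ± 0.558 and 1.28 ± 0.237 CPM, and its Ad-K458R libraries lay below the controls (log2 -0.55 ± 0.29, edgeR adjusted p = 0.45). CYP2D6, which converts codeine and tamoxifen, averaged 0.683 ± 0.0932, 0.852 ± 0.35 and 0.691 ± 0.179 CPM, and its neighbour and close copy CYP2D7, listed as a polymorphic pseudogene in GENCODE 29, averaged 0.572 ± 0.0702, 0.573 ± 0.413 and 0.657 ± 0.232. CYP2E1, which oxidises ethanol, averaged 0.602 ± 0.0731, 0.516 ± 0.234 and 0.555 ± 0.169 CPM and shares 3153 bases with a row on its own strand, SCART1, that held more counts (852 against 98).

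Family 3 was represented by CYP3A5 alone among the tested members. CYP3A5 held 6.19, 5.33 and 5.17 CPM with Ad-GFP, 5.14, 5.22 and 5.75 with Ad-HNF4A and 4.78, 6 and 5.74 with Ad-K458R. These groups overlapped, and the 95% intervals of the fold change were 0.771 to 1.21 and 0.792 to 1.24, so a change beyond these bounds lies outside the intervals. CYP3A4, the main drug-oxidising enzyme of adult liver, had 22 counts in all: 1, 3 and 0 with Ad-GFP, 0, 2 and 7 with Ad-HNF4A, and 5, 2 and 2 with Ad-K458R. An exact two-sided permutation test of log2(CPM + 1) gave p = 0.7 and 0.4 against Ad-GFP and 1 between the HNF4A groups, where 0.1 is the smallest possible. CYP3A7, the fetal liver form, had 19, 12 and 5 counts with Ad-GFP, 6, 4 and 8 with Ad-HNF4A, and 8, 2 and 6 with Ad-K458R. It shares nearly its whole length (30066 bases) with the readthrough row CYP3A7-CYP3A51P, which held 64 counts. CYP3A43 had 29 counts in all.

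In all, 16 members did not pass the filter, of which 11 had 3 to 70 counts over the 9 libraries and no single count above 19. CYP4B1 had 1 count with Ad-GFP, 10 with Ad-HNF4A and 11 with Ad-K458R, ratios of 11.6 (exact 95% interval 1.66 to 505) and 11.6 (1.69 to 501) for counting error. CYP2A6, the nicotine oxidase of liver, had counts only with Ad-HNF4A (0, 2 and 3), and its overlapping copy CYP2A7 had 22 counts in all. CYP2W1 had 21 counts and CYP2F1, known from lung, had 3. The 5 members without a count were CYP2A13, CYP4A11, CYP4A22, CYP4X1 and CYP4Z1. Of these, 4 lie in a cluster of 5 genes on chromosome 1 whose remaining gene, CYP4B1, also failed the filter. For each of the 5, a count of 0 allows up to 3 counts over all libraries, or 0.0173 CPM.

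Between Ad-K458R and Ad-HNF4A, edgeR called none of the 20 members, beside 0.00599% of all genes higher and 0.00599% lower, or 1 gene each way. At an unadjusted p under 0.05, 1 member differed, CYP1A1. DESeq2 called that member and limma-voom called none. CYP1A1 was 1.52-fold higher with Ad-K458R (95% interval 1.31 to 1.75, log2 0.60 ± 0.09), with all 3 libraries above, an edgeR adjusted p of 0.16 and an exact permutation p of 0.1. The call appeared under DESeq2 (adjusted p = 0.00012), with no filter (edgeR, 0.0033) and in a fit of the 6 libraries (0.042), and over all alternatives the adjusted p ran from 0.00012 to 0.49 and the log2 difference from 0.54 to 0.64. The libraries did not overlap for 2 of the 20 members (CYP1A1 and CYP2B6), beside 14.4% of all genes. For the other members called against Ad-GFP, the 95% intervals of the log2 difference were -0.14 to 0.75 for CYP1A2, -0.40 to 0.11 for CYP4F12 and -0.30 to 1.23 for CYP4F2. For CYP4F2 a difference of more than 2-fold lies inside that interval. The median of the 20 estimates was 0.11, beside 0.0 over all genes tested.

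Among 16 tested receptors and cofactors of foreign compounds and lipids, 2 rose in both comparisons with Ad-GFP and 1 fell with Ad-HNF4A. Over all genes, edgeR called 3.16% higher and 0.305% lower with Ad-HNF4A, and 3.32% higher and 0.234% lower with Ad-K458R. NR1I3 (CAR), the receptor known for CYP2B6, was at 0 in all controls, at 3.38, 4.41 and 5.20 CPM with Ad-HNF4A and at 7.36, 6.5 and 7.98 CPM with Ad-K458R (edgeR adjusted p = 3.2e-05 and 8.9e-06). NR0B2 (SHP), a repressor that other nuclear receptors induce, rose from 3.05 ± 1.23 to 7.98 ± 1.98 and 8.06 ± 0.53 CPM (edgeR adjusted p = 0.028 and 0.024). AHR, the receptor that induces CYP1A1 and CYP1A2, stood at 170, 196 and 176 CPM with Ad-GFP, at 136, 155 and 139 with Ad-HNF4A and at 174, 168 and 164 with Ad-K458R. Its log2 change was -0.33 ± 0.07 with Ad-HNF4A (edgeR adjusted p = 0.027), a fall, and the difference of -0.10 ± 0.07 with Ad-K458R was not called (adjusted p = 0.62). CYP1A1 also had its lowest group mean with Ad-HNF4A, and the part of AHR in the levels of CYP1A1 was not tested. Of 7 tested genes known as other AHR targets, none was called against Ad-GFP by edgeR, DESeq2 or limma-voom. At an unadjusted p under 0.05, 1 of the 7 was lower with Ad-HNF4A and 1 higher with Ad-K458R. The median log2 change of the receptors was 0.08 and 0.05, and that of the AHR targets 0.02 and 0.11.

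**Figure D4:**
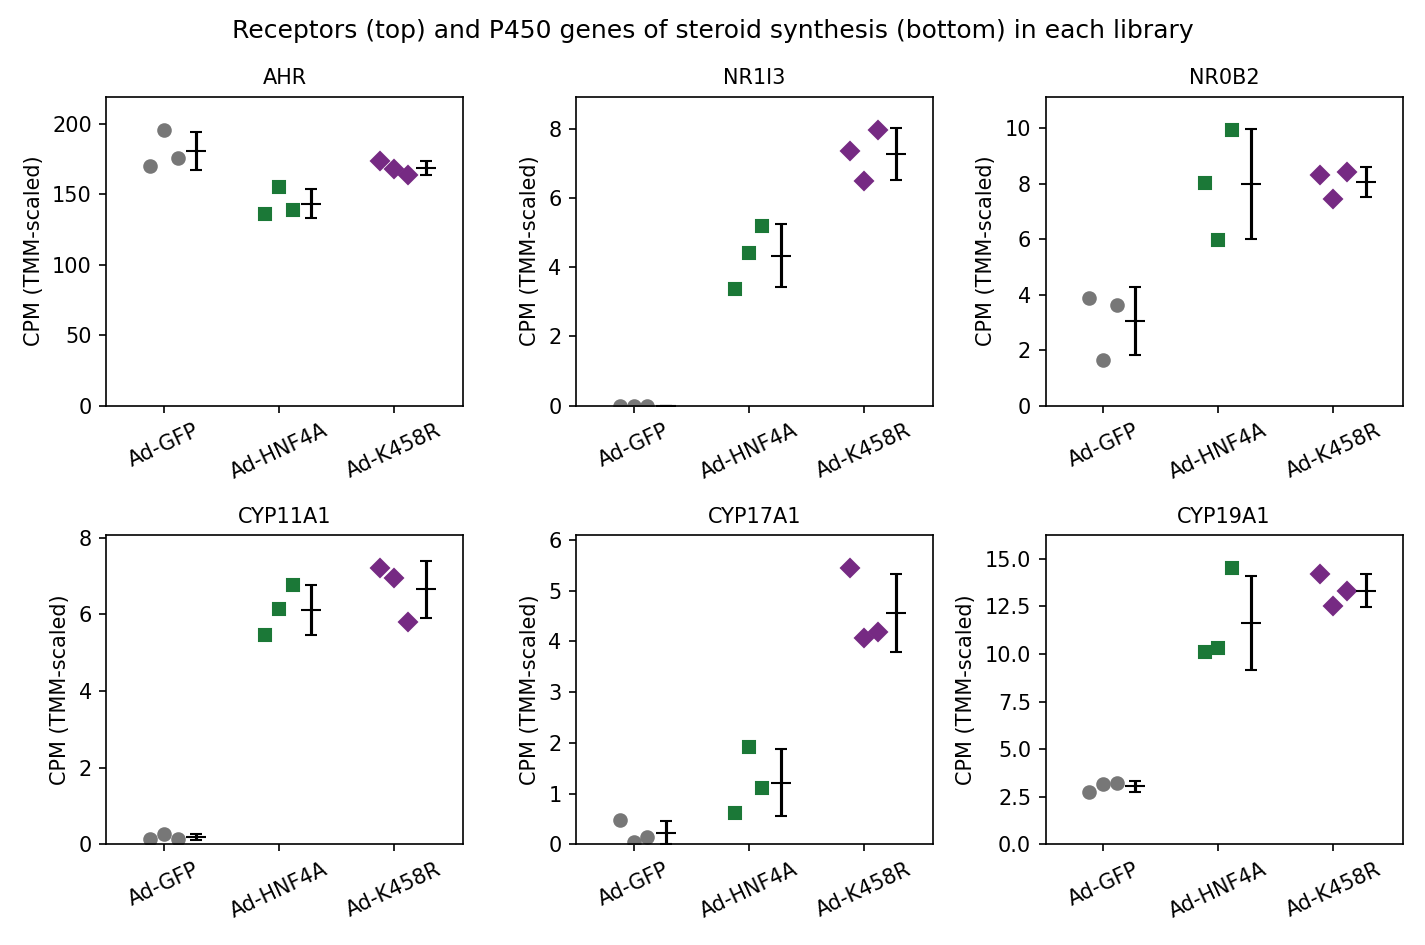
CPM in each of the 9 libraries (points), with group mean and SD, of AHR, NR1I3 and NR0B2 in the upper row and of CYP11A1, CYP17A1 and CYP19A1 in the lower row, with every axis starting at 0. NR1I3 is at 0 in the 3 controls, AHR is lowest with Ad-HNF4A, and all libraries of both HNF4A viruses lie above the controls for CYP11A1, CYP17A1 and CYP19A1, although CYP17A1 was not called with Ad-HNF4A.

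Of 18 liver transcription factors, 2 rose and 1 fell in each comparison with Ad-GFP, with medians of 0.05 and -0.03. Beside the calls in this paragraph, 3.16% and 3.32% of all genes were called higher, and 0.305% and 0.234% lower, by edgeR in these comparisons. HNF4A itself was among those that rose. ONECUT2 fell from 121 ± 4.58 to 102 ± 4.51 and 101 ± 2.67 CPM (edgeR adjusted p = 0.043 and 0.032). Of 8 proteins that pass electrons to P450 enzymes or assist them, FDX1, the ferredoxin of mitochondrial P450 enzymes, rose with Ad-HNF4A from 6.5 ± 1.4 to 10.8 ± 1.98 CPM (edgeR adjusted p = 0.05 after rounding, below the threshold before it), and limma-voom did not call it. None of the 8 was called with Ad-K458R by edgeR, DESeq2 or limma-voom, although 2 had an unadjusted p under 0.05. POR, which serves all microsomal members, stood at 148 ± 13.8, 178 ± 13.5 and 182 ± 11.1 CPM and was not called (edgeR adjusted p = 0.13 and 0.098). The partner medians were 0.09 and 0.03. Of 12 tested genes of haem synthesis and breakdown, HMOX1, the inducible haem oxygenase, rose from 80.6 ± 3.99 to 108 ± 11 and 113 ± 2.1 CPM (edgeR adjusted p = 0.012 and 0.0045). CPOX, an enzyme of haem synthesis, rose with Ad-HNF4A from 42.2 ± 1.44 to 55.4 ± 3.84 CPM (adjusted p = 0.041), and stood at 41.7 ± 4.61 with Ad-K458R, which was not called. The haem medians were 0.08 and 0.0.

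P450 genes of the other families, among them genes that serve steroids, bile acids and vitamins, were read beside the members. Of 14 tested, 3 rose with Ad-HNF4A and 4 with Ad-K458R, beside 3.16% and 3.32% of all genes called higher by edgeR. None was called lower by edgeR, DESeq2 or limma-voom. At an unadjusted p under 0.05, none of the 14 was lower with Ad-HNF4A and 1 was lower with Ad-K458R. CYP11A1, which starts steroid synthesis by cutting the side chain of cholesterol, rose from 0.183 ± 0.0771 to 6.12 ± 0.657 and 6.65 ± 0.746 CPM (edgeR adjusted p = 2.7e-06 and 1.6e-06). CYP19A1, the aromatase that forms oestrogens, rose from 3.04 ± 0.266 to 11.7 ± 2.5 and 13.3 ± 0.838 CPM (edgeR adjusted p = 0.00011 and 3.5e-05). CYP17A1, which forms androgens, rose with Ad-K458R from 0.229 ± 0.228 to 4.56 ± 0.763 CPM (edgeR adjusted p = 0.00099) and stood at 1.22 ± 0.651 with Ad-HNF4A (adjusted p = 0.063). Its 3 Ad-K458R libraries lay above those of Ad-HNF4A, a difference of 1.89 ± 0.42 that edgeR did not call (adjusted p = 0.33). CYP8B1, an enzyme of bile acid synthesis, was at 0 in the controls and at 1.69 ± 0.757 and 2.41 ± 0.0701 CPM with the HNF4A viruses (edgeR adjusted p = 0.00075 and 0.0003). The medians of this list were 0.37 and 0.30. Between the HNF4A groups, edgeR and limma-voom called no gene of these lists of receptors, factors, targets and enzymes, and DESeq2 called 1 each among the haem genes, liver transcription factors, AHR targets and other P450 genes. At an unadjusted p under 0.05, 4 receptors were higher and 3 lower there, and each other list had at most 2 such genes.

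Markers of other cell types moved in part with the same comparisons, and counts do not tell which cells of a tumour the transcripts came from. Beside the calls below, 3.16% and 3.32% of all genes tested were called higher by edgeR with Ad-HNF4A and Ad-K458R. Of 9 tested macrophage markers, CSF1R, CTSS and LAPTM5 rose with Ad-HNF4A and CD68 in addition with Ad-K458R, while the summed CPM of the 13 listed genes was 318 to 352, 256 to 360 and 308 to 344 in the Ad-GFP, Ad-HNF4A and Ad-K458R groups. LYZ alone gave 314 ± 15.9, 286 ± 59.9 and 281 ± 20.4 CPM of these sums and was not called. Of the 9 tested, 8 had a log2 change above 0 in each comparison with Ad-GFP, with medians of 0.70 and 0.57. CTSS, among those called in both, stood at 3.22 ± 0.246, 8.77 ± 0.779 and 9.27 ± 1.26 CPM. Near 0 in the controls were LAPTM5 (0.0979 ± 0.0102, 0.94 ± 0.206 and 1.11 ± 0.152 CPM) and CSF1R (0.0181 ± 0.0314, 0.523 ± 0.206 and 0.626 ± 0.137 CPM). Of the untested macrophage markers, ADGRE1 and MRC1 had lower means than the controls in both HNF4A groups, and CD163 and TYROBP had higher means. Neutrophil markers summed to 7.74 to 9.71, 12 to 21.5 and 19.9 to 23.8 CPM in the same order. S100A9 had the highest mean of the list in every group. Of 3 tested, 2 were called in both (LTF and S100A9), with median log2 changes of 0.81 and 1.48. CSF3R, the other tested marker, was not called, with log2 changes of 0.54 ± 0.32 and -0.09 ± 0.33. Among the untested neutrophil markers, S100A8 averaged 0.341, 0.399 and 0.32 CPM in the same order. MPO was at 0 in the controls and averaged 0.0586 and 0.0602 CPM with the HNF4A viruses, and ELANE was at 0 throughout. For fibroblasts 1 of 7 was called in both (COL6A1), the medians were 0.08 and -0.03, and the sums ran from 114 to 119, 126 to 137 and 121 to 134 CPM. For endothelium 1 of 3 was called in both (VWF), KDR was at 0, and the medians were 0.43 and 0.71. With Ad-HNF4A limma-voom called 0 of the 3. The endothelial sums ran from 40.1 to 43.7, 50.1 to 61.7 and 44.8 to 51.6 CPM. PECAM1 alone gave 39.9 ± 1.54, 50.6 ± 5.45 and 42.1 ± 2.82 CPM of them and was not called. Of 5 tested enterocyte markers edgeR, DESeq2 and limma-voom called none, and 2 had an unadjusted p under 0.05 with Ad-HNF4A and none with Ad-K458R. The enterocyte medians were 0.31 and 0.0, with 5 and 3 of the 5 estimates above 0. The enterocyte sums ran from 648 to 741, 743 to 769 and 664 to 727 CPM. VIL1 alone gave 595 ± 44.6, 629 ± 23.2 and 596 ± 24.3 CPM of them. Among the 11 hepatocyte and hepatoma markers, APOA1 rose in both comparisons and GPC3 fell with Ad-K458R. Their medians were 0.03 and -0.06, with 7 and 2 of the 11 estimates above 0. At an unadjusted p under 0.05, 1 was higher and 2 lower with Ad-HNF4A, and 1 higher and 4 lower with Ad-K458R. The hepatocyte sums ran from 36000 to 37200, 35500 to 38000 and 34000 to 34100 CPM. AFP alone gave 13800 ± 614, 14100 ± 1060 and 12200 ± 435 CPM of them. Between the HNF4A groups no marker was called by edgeR, DESeq2 or limma-voom, and at an unadjusted p under 0.05 each list had at most 5. The part of these other cells in the levels of CYP1A2, CYP4F12 and CYP4F2 was not tested.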

How the data were processed

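Messenger RNA was sequenced from 9 xenograft tumours in 3 groups of 3. Per the file headers, the table deposited by the authors gives for each library the raw counts of reads per gene and their FPKM. The submitters' processing notes name Trimmomatic. The aligner and the counter were not given in the sources used here. The notes also name mm10 although the gene identifiers are human. Positions are those of the table, and 29 of the 36 members have the identical position in GENCODE 29 (GRCh38). No strand-preserving step is described in the labels, so reads of overlapping genes on opposite strands may not be told apart.

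The deposited counts were tested in R 4.3.3 with edgeR 4.0.16 (quasi-likelihood F test, robust, two-sided), after filterByExpr and TMM scaling, with 9 libraries in 1 fit by group. P-values were adjusted by the Benjamini-Hochberg method over 16697 genes. The test was tried on simulated data first. Alternatives were DESeq2 1.42.0, limma-voom and limma-trend (limma 3.58.1) on log2(deposited FPKM + 1) and + 0.1, 3 scalings, 2 filters, fits of 6 libraries, a replicate block and leaving out each library. Log2 changes carry their SE, and levels their SD over 3 libraries. Level per length used summed exons of GENCODE 29. The length implied by the deposited FPKM lay within 10% of it for 1 of 24 members. Promoter motifs were counted with Python 3.11.15.

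The members and lists were chosen with earlier results of these data known. Members called in any comparison are given by library, other tested members by group mean, members below the filter by counts, and genes of the lists where called. A few genes are not reported here by name. POR, and the libraries of some uncalled members, are given outside this rule, chosen after their values were seen. No sample and no column was left out.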

Additional observations from a re-analysis of the deposited data

How the results depend on the processing

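Leaving out 1 library at a time changed the number of genes called higher with Ad-HNF4A (527) to between 328 and 625 and called lower (51) to between 14 and 131. For Ad-K458R against Ad-GFP the genes called lower (39) became 10 to 21. Between Ad-K458R and Ad-HNF4A the genes called higher (1) became 1 to 11 and called lower (1) became 1 to 5. The P450 members called higher with Ad-K458R (4) became 2 to 3, so that every removal lost at least 1 call, with 2 left without Ad-GFP replicate 2 or without Ad-K458R replicate 3.

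Genes called higher with Ad-HNF4A were 333 in a fit of 6 libraries. Genes called lower with Ad-HNF4A were 131 under DESeq2, 18 on log2(FPKM + 1), 18 on log2(FPKM + 0.1), 81 with no filter, 18 in a fit of 6 libraries and 22 with the replicate block. Genes called lower with Ad-K458R were 90 under DESeq2, 20 with library totals only, 15 on log2(FPKM + 1), 16 on log2(FPKM + 0.1) and 15 with the replicate block. Between the HNF4A groups, genes called higher were 46 under DESeq2, 2 under limma-voom, 3 on log2(FPKM + 1), 2 on log2(FPKM + 0.1), 7 with no filter and 6 in a fit of 6 libraries, and genes called lower were 15, 2 and 3 under DESeq2, no filter and 6 libraries. The P450 members called there were 1 under each of DESeq2, no filter and 6 libraries. The cause of these moves was not tested.

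Same-numbered libraries had correlations of -0.038 to 0.053 in their deviations from the group means, beside -0.065 to 0.045 for libraries of different numbers. With 3 libraries a group and no pairing named in the labels, these values cannot settle whether the numbers pair the tumours. Of the called P450 members the replicate block changed the call of CYP1A1 alone. No P450 value given under the alternatives changed its direction. On log2(FPKM + 1), a scale that compresses low levels, the differences from Ad-GFP were 1.64 and 1.86 for CYP1A2, and 0.31 for CYP4F2 with Ad-K458R. Members with few counts limit what could be found: 16 of 36 were not tested, and 1 count in the controls sets the size of the change of CYP1A2. Arms left with 2 libraries were fitted with the spread of all groups.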
